A study of Drosophila melanogaster with 4 samples.

Results

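Broad autosomal Su(Hw) peaks were the peaks of 5000 bp or wider on arms 2L, 2R, 3L and 3R and on chromosome 4. They numbered 354 of the 4141 autosomal peaks, or 8.55% (Wilson 95% interval 7.74 to 9.44%), and 354 of the 5357 peaks in the whole list. They were chosen by width alone, the distance between a peak's deposited start and end, so their widths are given below as a description. They covered 2516 kb, which was 25.2% of the 9988 kb under all autosomal peaks.

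Su(Hw), the product of suppressor of Hairy-wing, binds DNA through an array of zinc fingers. It was first known from the insulator inside the gypsy retrotransposon, where it blocks enhancers from reaching promoters on the other side, together with its partner proteins Mod(mdg4) and CP190. It also occupies many genomic sites that hold no gypsy element, and it represses genes in the female germ line. A peak is a stretch in which a peak-calling program found more reads from immunoprecipitated chromatin than its background model predicted.

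The series held 2 Su(Hw) ChIP libraries, made with an affinity-purified rabbit polyclonal antibody raised against Su(Hw), and 2 libraries of input DNA. All 4 came from white prepupae, the immobile stage at the start of metamorphosis, of the strain labelled Y cn bw sp. Both groups shared its genotype: y[1] with oc[R3.2] first, then Gr22b[1], Gr22d[1] and cn[1] beside CG33964[R4.2], further bw[1] and sp[1], and finally LysC[1] and lab[R4.2] with MstProx[1], GstD5[1] and also Rh6[1]. Neither the age of the animals beyond the stage, nor how many were pooled, nor whether replicates 1 and 2 were separate collections was given, and chromatin of all tissues was mixed.

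The deposited values were 1 list of peaks for the series, with positions and a score per peak on FlyBase release 5. The score was the authors' own, as written by the peak caller, and its scale was not given. It was therefore used only to describe, order and filter peaks inside this list. Ratios, slopes and scores per kb given below describe the values as deposited and depend on that unknown scale. There were no counts per library, the depth behind a peak was unknown, and no spread between replicates could be computed. Peaks are not replicates, and no test was run. Shares carry Wilson 95% intervals, which treat peaks as independent and, like the limits given for counts of 0, cover counting error only. Those limits are not Wilson bounds but a count of 3 divided by the number of peaks. Every difference below is therefore a description of this list.

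Broad peaks were found on all 4 large autosomal arms in similar shares. Arm 3R held 120 of its 1282 peaks (9.36%, interval 7.89 to 11.1%), 2R held 81 of 900 (9.0%, 7.3 to 11.0%), 2L held 78 of 967 (8.07%, 6.51 to 9.95%) and 3L held 75 of 983 (7.63%, 6.13 to 9.46%). The 4 intervals overlapped one another. Chromosome 4, the short and largely heterochromatic autosome, had none among 9 peaks, which allows a share of up to 33.3%. Its widest peak, 4:960518-963837, spanned 3320 bp. Among its widest peaks the highest score, 867.59, was that of 4:434533-437162, which spanned 2630 bp.

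The autosomal share stood above that of the X chromosome, where 50 of 999 peaks reached 5 kb (5.01%, interval 3.82 to 6.54%). Each large autosomal arm except 3L and 2L had an interval that cleared the X interval, and those of 3L and 2L overlapped it. Broad peaks took 25.2% of the peak length on the autosomes and 15.6% on X. Where they occurred, the median width was 6363 bp on the autosomes and 6052 bp on X, and the median score was 568 on the autosomes and 517 on X. Off the arms, 3 of 217 peaks were as wide, namely 3RHet:1519808-1528006, 3LHet:1281049-1288295 and 2RHet:368589-374472.

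**Figure D1:**
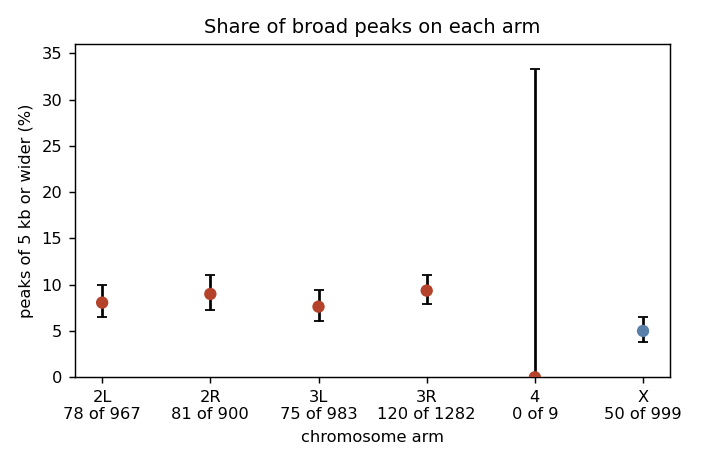
Share of peaks of 5 kb or wider (vertical axis, %) on each chromosome arm, with the number of broad peaks and of all peaks under each arm; bars are Wilson 95% intervals, and for chromosome 4, with 0 of 9, the limit that a count of 0 allows. The 4 large autosomal arms lie between 7.63 and 9.36%, and X lies at 5.01%.

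Broad peaks were most numerous just over the limit. Their median width was 6363 bp, the quartiles were 5452 and 7893 bp, and the 10th and 90th percentiles 5148 and 9770 bp. Of the 354, 142 were 5 to 6 kb wide (40.1%), 128 were 6 to 8 kb (36.2%), 55 were 8 to 10 kb (15.5%) and 29 were 10 kb or wider (8.19%). The limit fell inside a continuous distribution. The narrowest members, 2L:15231932-15236938 and 3R:1972932-1977938, were both 5007 bp wide, with scores of 375.79 and 865.05, followed by 3R:18911808-18916822 with 5015 bp and a score of 536.33. Just outside it lay 2R:10326852-10331844 and 3L:2182910-2187902, both 4993 bp wide, with scores of 168.24 and 673.8, and 3L:21183565-21188550 with 4986 bp and a score of 310.72.

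A few peaks were much wider than the rest. The widest, 3L:22305528-22344863, was a single interval of 39336 bp with a score of 890.52, and no other peak lay within 7842 bp of it. The next, 2L:20176673-20198838, was 22166 bp wide and scored 812.13. No other member reached 16 kb. The widest on 3R was 18162974-18178640, with 15667 bp and a score of 653.53, and the widest on 2R was 6876726-6888530, with 11805 bp and a score of 800.89.

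The remaining 9 of the 12 widest peaks lay on 2L and 3R. Those on 2L were 13649406-13664821 (15416 bp), 9474971-9489953 (14983 bp), 20242959-20257326 (14368 bp) and 12981735-12994970 (13236 bp). Those on 3R were 19057857-19072249 (14393 bp), 15351732-15366080 (14349 bp), 27737862-27751241 (13380 bp), 7007322-7019861 (12540 bp) and 1947633-1960110 (12478 bp). Peaks of 10 kb or wider numbered 11 on 3R, 9 on 2L, 7 on 2R and 2 on 3L, so 3L held the widest peak of the list but few other very wide ones.

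Score hardly followed width once a peak was 5 kb wide. Across the 354 broad peaks Spearman's rho between width and score was 0.18, against 0.92 across the 3787 narrower autosomal peaks. Both measures of a peak come from the same reads and the same caller, and a limit on width narrows its range among the members, so the coefficients describe the list only. On log axes the slope of score on width was 0.27 in the broad peaks and 1.39 in the narrower ones.

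The same levelling off was seen in classes of width. The median score was 530 at 5 to 6 kb, 561 at 6 to 8 kb, 624 at 8 to 10 kb and 648 at 10 kb or wider. Among narrower autosomal peaks it was 244 at 2 to 3 kb, 380 at 3 to 4 kb and 494 at 4 to 5 kb. Relative to the 418 peaks of 4 to 5 kb, the median was 1.07 times as high at 5 to 6 kb and 1.31 times as high at 10 kb or wider. Score per kb of width was therefore lower in wider members. Its median was 101 at 5 to 6 kb and 80.9 at 6 to 8 kb. It was 67.7 at 8 to 10 kb and 49.6 at 10 kb or wider. Among narrower autosomal peaks it rose with width, from 40.2 under 1 kb and 65.7 at 1 to 2 kb to 94.98 at 2 to 3 kb. It was 109.8 at 3 to 4 kb and 111 at 4 to 5 kb, the highest of the classes. Pooled over widths, the median was 82.7 in broad peaks and 70.4 in other autosomal peaks. Within each of the 4 classes of broad peaks, rho between width and score lay between -0.01 and 0.06. Within narrower classes rho was 0.75 under 1 kb, 0.43 at 1 to 2 kb, 0.24 at 2 to 3 kb, 0.23 at 3 to 4 kb and 0.31 at 4 to 5 kb. Each was below the 0.92 found across the narrower peaks together, which cover a wide range of widths.

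**Figure D2:**
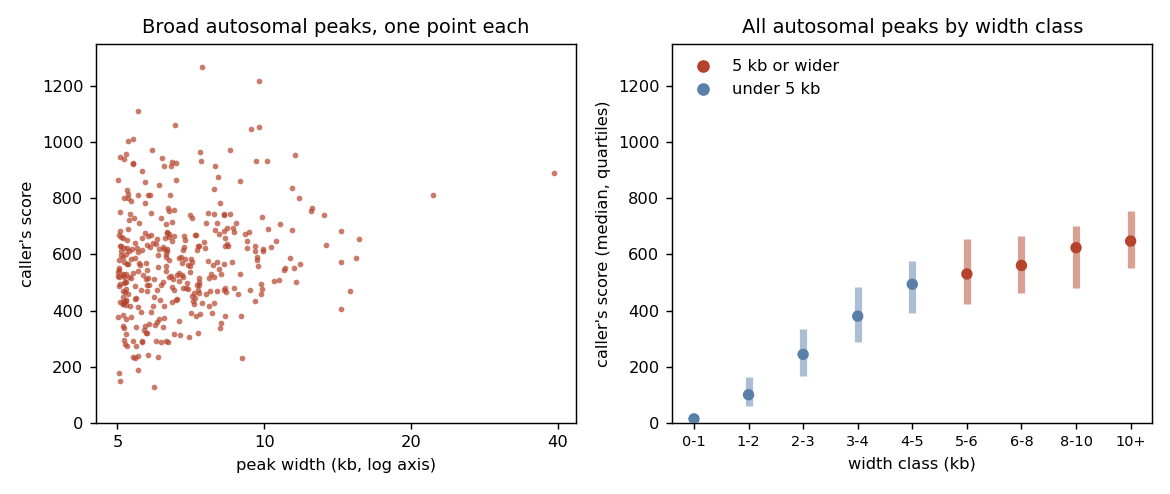
Left, the caller's score against width (kb, log axis) for each of the 354 broad autosomal peaks. Right, the median score (points) and quartiles (bars) of all autosomal peaks by width class in kb, with peaks of 5 kb or wider in red and narrower ones in blue. The medians climb to 494 at 4 to 5 kb and reach 648 at 10 kb or wider.

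Broad peaks scored high as a group, and their scores overlapped widely with those of peaks just under the limit. Their median score was 568 (quartiles 465 and 675, range 127.62 to 1268.69). Of the 354, 236 (66.7%, interval 61.6 to 71.4%) were above 494, the median of the 4 to 5 kb peaks. Only 2 were below 152, the median of the whole list. Above it lay 99.4% of the broad peaks and 98.8% of the 4 to 5 kb peaks (413 of 418), so the 2 classes were alike in this. At the extremes, 49 broad peaks (13.8%) scored above the 95th percentile of the 4 to 5 kb peaks, and 10 (2.82%) scored below their 5th percentile. Of the 20 highest autosomal scores 12 belonged to broad peaks, and of the 100 highest 52 did. Broad peaks were 8.55% of all autosomal peaks and 16.4% of those above the list's median score.

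A line fitted on log axes to the narrower peaks and extended past 5 kb gave another reading. Only 50 broad peaks (14.1%) lay above it, and the median broad peak had 0.645 times the score the line gave for its width. The line lies outside the widths it was fitted on, so this value describes how the relation bends and not how any peak was bound.

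None of the 12 widest was among the 12 highest-scoring broad peaks. Each ranking took only 12 of the 354, so this lack of overlap says little about how width and score relate. The scores of the 12 widest ran from 403.98 to 890.52, and 10 of the 12 lay above the median of the 354. The highest score, 1268.69, belonged to 3L:22884862-22892306, which ranked 105th in width with 7445 bp. The next 5 were 2R:3113144-3122908 (score 1217.58, 9765 bp), 3L:22446351-22451849 (1112.21, 5499 bp), 3R:26307361-26313908 (1062.1, 6548 bp), 3L:962404-972175 (1053, 9772 bp) and 2L:3128759-3138171 (1045.74, 9413 bp). All 6 were under 10 kb, and their scores per kb ran from 108 to 202.

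Of the 6 lowest scores, 5 belonged to members under 6 kb. The lowest, 127.62, was that of 2R:8706178-8712105, 5928 bp wide, followed by 150.26 at 2R:13033247-13038314 (5068 bp) and 176.36 at 3R:19787404-19792450 (5047 bp). Then came 3L:944324-949827 with 188.45 (5504 bp) and 3R:2337290-2342713 with 230.77 (5424 bp). An exception in width was 3L:13556720-13565740, which spanned 9021 bp with a score of 231.68, or 25.7 per kb. The lowest score among the 29 peaks of 10 kb or wider was 403.98.

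Broad peaks often had another peak close to an edge. The gap between facing edges was 1 kb or less for 172 of 354 (48.6%, interval 43.4 to 53.8%), for 571 of the 1776 autosomal peaks of 2 to 5 kb (32.2%, 30.02 to 34.4%) and for 151 of the 418 of 4 to 5 kb (36.1%, 31.7 to 40.8%). The planned comparison was with all 3787 other autosomal peaks, whose share was 43.9% (42.3 to 45.5%), and there the intervals overlapped. That figure joins unlike widths: 65.1% of peaks under 1 kb had a neighbour within 1 kb and 28.4% of those of 2 to 3 kb. On X, 22 of 50 peaks of 5 kb or wider had a neighbour within 1 kb (44.0%, 31.2 to 57.7%), an interval that overlapped that of the broad autosomal peaks. The median gap was 1206 bp for broad autosomal peaks, 3391 bp for the 4 to 5 kb class and 2249 bp for all others.

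The share with such a neighbour followed no steady order among the width classes of the members. It was 41.5% at 5 to 6 kb (interval 33.8 to 49.8%), 53.9% at 6 to 8 kb (45.3 to 62.3%), 45.5% at 8 to 10 kb (33.0 to 58.5%) and 65.5% at 10 kb or wider (47.3 to 80.1%, 29 peaks). The 4 intervals overlapped. Of the 12 widest, 9 had one. By score, the share was 49.2% in the lowest-scoring 118 broad peaks, 46.6% in the middle 118 and 50.0% in the highest-scoring 118. The 4 to 5 kb peaks, divided in the same way, gave 37.4, 36.4 and 34.5%.

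**Figure D3:**
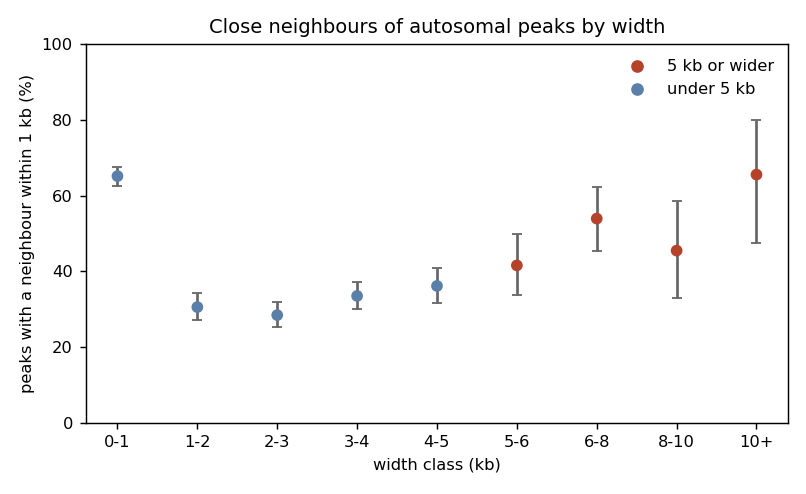
Share of autosomal peaks with another peak within 1 kb of an edge (vertical axis, %) by width class in kb, with Wilson 95% intervals; peaks of 5 kb or wider are red and narrower ones blue. The share is 65.1% under 1 kb, 28.4% at 2 to 3 kb and 65.5% at 10 kb or wider.

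Some members had peaks close by on both sides. Such peaks flanked 36 of 354 broad peaks (10.2%, interval 7.44 to 13.8%), 19 of 418 peaks of 4 to 5 kb (4.55%, 2.93 to 6.99%) and 236 of 3787 other autosomal peaks (6.23%, 5.51 to 7.05%). Another 136 broad peaks had a neighbour within 1 kb on 1 side, and 182 had none. By width, a neighbour stood on both sides of 10 of 142 members at 5 to 6 kb, 11 of 128 at 6 to 8 kb, 10 of 55 at 8 to 10 kb and 5 of 29 at 10 kb or wider.

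The close neighbours were mostly small and low-scoring. For the 172 broad peaks with a neighbour within 1 kb, the nearest one had a median width of 381 bp and a median score of 12.9. It was under 500 bp wide in 105 cases (61.0%), scored below the median of the whole list in 145 (84.3%) and was itself broad in 8. The neighbours of 4 to 5 kb peaks were much alike, with a median width of 427 bp and a median score of 13.8. Their nearest neighbour scored below the median of the whole list in 125 of 151 cases (82.8%). When neighbours with scores below the list's median were left aside, 34 broad peaks (9.6%) had a neighbour within 1 kb. The share was 21.8% for all other autosomal peaks, so the order against that set turned. That set joins unlike widths, and the share was not computed for the 4 to 5 kb peaks alone.

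The comparison was repeated at 10 kb. A neighbour within 10 kb was found for 289 broad peaks (81.6%, interval 77.3 to 85.3%), for 76.1% of the 4 to 5 kb peaks (71.8 to 79.9%) and for 75.9% of all others (74.5 to 77.2%). The interval of the broad peaks overlapped that of the 4 to 5 kb class and lay just above that of all others. This distance runs between edges. Between centres, where width itself holds neighbours apart, the shares were 66.4% of the broad peaks and 69.6% of all others. Counting other peak centres within 50 kb, broad peaks had 5.93 ± 3.39 (SD, 354 peaks) and other autosomal peaks 5.57 ± 3.29 (SD, 3787 peaks), with a median of 5 in both.

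A few members stood far from any other peak. The most isolated was 3R:1173547-1178914, 5368 bp wide with a score of 619.45, whose nearest neighbour was 77975 bp away. It was followed by 2R:15661830-15667437, with a gap of 71843 bp and a score of 897.61, and 3L:20398268-20405987, with a gap of 52979 bp and a score of 517.54. All but these 3 had another peak within 50 kb.

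Broad peaks lay near each other in places. The median gap from a broad peak to the nearest other broad peak was 84.8 kb (quartiles 18.9 and 172 kb). Another was within 10 kb for 57 of 354 (16.1%, interval 12.6 to 20.3%) and within 50 kb for 144 (40.7%, 35.7 to 45.9%). Broad peaks numbered from 3.07 per Mb on 3L to 4.31 per Mb on 3R. The gaps were not set against those of peaks spread at that density, so they do not tell clustering from density. The 31 neighbouring pairs at up to 10 kb formed 23 pairs standing alone, 1 run of 3 and 2 runs of 4, and in 20 of the 31 at least 1 narrower peak lay between.

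The 3 closest pairs were nearly contiguous. On 3R, 27737862-27751241 (13380 bp, score 634.59) and 27751376-27756712 (5337 bp, 585.15) were 134 bp apart. On 2R, 20176033-20182481 (6449 bp, 913.76) and 20182639-20192761 (10123 bp, 934.28) were 157 bp apart, and 16112349-16120403 (8055 bp, 875.22) and 16120637-16125902 (5266 bp, 458.56) were 233 bp apart. No other peak stood between the members of these 3 pairs.

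With up to 50 kb allowed between neighbours, the largest groups were 2 runs of 6 broad peaks on 2L. The run at 2L:20176673-20294216 spanned 118 kb, of which its broad peaks covered 55.5%, and held 13 peaks in all. It contained the second widest peak, the 14368 bp peak and one of 11555 bp at 20282662-20294216 that scored 954.67, along with members that scored 240.8 and 343.1. The run at 2L:3664689-3765589 spanned 101 kb, of which 39.8% was covered, and held 12 peaks. Its widths ran from 5033 to 11386 bp and its scores from 430.53 to 915.87.

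Counted in 500 kb windows of the large autosomal arms, broad peaks had a median of 2 per window (quartiles 1 and 3, 189 windows), and 34 windows had none. Windows with more peaks of any width held more broad ones (Spearman's rho 0.5 across the 189 windows, in which broad peaks are themselves counted among all peaks). The fullest were 3R:9000001-9500000, with 8 broad peaks of 36, and 3R:22500001-23000000, with 8 of 32. A rich window could also lack them: 2R:12000001-12500000 held 30 peaks and no broad one.

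The next question was whether broad peaks sat near the ends of the arms. Arm lengths of release 5 were not used here, so position 1 and the outer edge of the last peak stood for the ends of each arm. Within 1 Mb of either end of the large autosomal arms lay 19 of 354 broad peaks (5.37%, interval 3.46 to 8.23%) and 162 of 3778 other peaks (4.29%, 3.69 to 4.98%). The telomere-facing (distal) ends held 16 broad peaks (4.52%, 2.8 to 7.22%) and 118 others (3.12%, 2.61 to 3.73%). The centromere-facing (proximal) ends held 3 broad peaks (0.847%, 0.289 to 2.46%) and 44 others (1.16%, 0.869 to 1.56%). All these intervals overlapped, so no difference was resolved at either end with so few members there.

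By arm, the distal 1 Mb held 6 broad peaks on 2R, 5 on 3R, 3 on 3L and 2 on 2L. The proximal 1 Mb held 1 each on 2R, 3L and 3R and none of 78 on 2L, which allows a share of up to 3.85%. The outermost members at distal ends were 2L:311381-319676 (8296 bp, score 631.48), 2R:20777487-20782919 (5433 bp, 587.57), 3L:915971-922670 (6700 bp, 361.39) and 3R:27751376-27756712 (5337 bp, 585.15). Beyond these members lay 11 narrower peaks each on 2L, 2R and 3L and 6 on 3R.

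At the proximal ends the outermost members were 2L:20890264-20895392 (5129 bp, score 447.23), 2R:939051-946097 (7047 bp, 740.36), 3L:24455296-24462170 (6875 bp, 649.97) and 3R:586770-592858 (6089 bp, 371.2). The peak on 3L was the last but 1 of that arm. The peak on 2R had 1 peak beyond it, whereas 23 narrower peaks lay beyond the one on 2L.

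On a coarser scale the share of broad peaks was highest towards the telomeres. With each large autosomal arm divided into 5 equal segments from the proximal end, broad peaks were 7.78% of all peaks in segment 1 (47 of 604), 7.67% in segment 2 (67 of 874), 7.13% in segment 3 (63 of 883), 8.84% in segment 4 (78 of 882) and 11.1% in segment 5 (99 of 889). The distal-most segment had an interval of 9.23 to 13.4%, which overlapped those of segments 1, 2 and 4 and lay above that of segment 3 (5.62 to 9.02%). Its share was the highest of the 5 on each of the 4 arms, at 12.9% on 3R, 11.1% on 2R, 10.8% on 2L and 9.05% on 3L. Within each arm the interval of segment 5 overlapped those of the other segments. Pooled over the arms, the median width of the broad peaks from segment 1 to segment 5 was 6217, 6461, 6528, 6464 and 6223 bp. Their median score was 598, 558, 531, 541 and 611. In these pooled values both end segments had lower median widths and higher median scores than the 3 between them. Both held on 2L and 3R, but only the scores followed on 2R and only the widths on 3L. Segment 1 of 2R had a median width of 7047 bp, against 6067 bp in its segment 4. Segment 5 of 3L had a median score of 503, against 648 in its segment 2. This division was chosen after the positions had been seen.

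**Figure D4:**
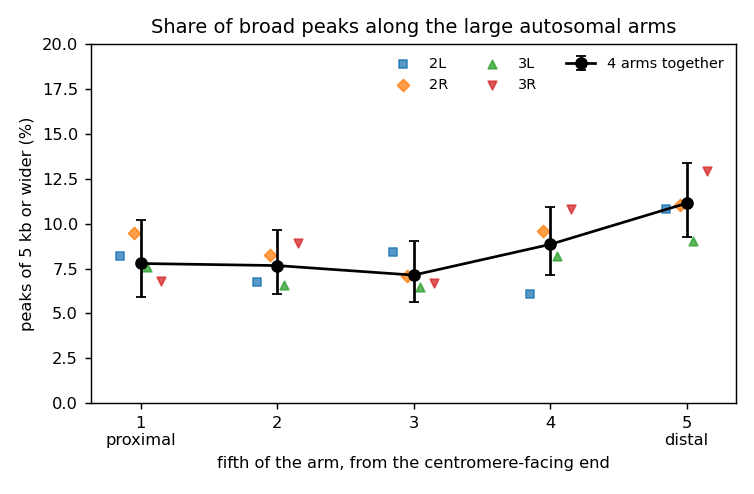
Share of peaks of 5 kb or wider (vertical axis, %) in 5 equal segments of the large autosomal arms, from the centromere-facing end (left) to the telomere-facing end (right). Black points with Wilson 95% intervals pool the 4 arms, and coloured symbols show each arm; the pooled share is 7.13% in segment 3 and 11.1% in segment 5.

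Joining neighbouring peaks changed which regions were broad. With at most 1 kb between edges, the 4141 autosomal peaks formed 3088 loci, and the 354 broad peaks lay in 343 of them. Of these 343, 182 were a broad peak alone and 161 included other peaks, up to 7 peaks in all, and their median width was 7205 bp. A further 143 loci reached 5 kb without holding any broad peak. The widest locus remained the single 39336 bp peak on 3L. It was followed by 2L:20242959-20272126 (29168 bp from 6 peaks) and 2L:3737333-3766267 (28935 bp from 7 peaks), both in the runs on 2L described above. The genes and sequence under the broad peaks were not analysed here.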

How the data were processed

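Per the labels, the series held 2 Su(Hw) ChIP and 2 input DNA libraries. The authors deposited 1 peak list for all of them, and its score is the peak caller's value for each peak. The list names MACS and FlyBase release 5, per the file headers and columns, and CASAVA 1.7.0.2 and 1.7.0.3, BWA, MACS2 and build BDGP5 are named in the submitters' processing notes. The version of the caller, its threshold, its control, the pooling of libraries and the scale of the score are not stated in the sources at hand. A caller's rules for merging nearby enriched bases set the widths and gaps of peaks, so these depend on settings that are not known.

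Coordinates are 1-based. Widths, gaps between facing edges of neighbouring peaks, and centres were computed from the deposited starts and ends. Loci joined peaks with at most 1 kb between edges. Position 1 and the end of the last peak stood for the ends of an arm. The members, the width limit and the measures were chosen with earlier results of these data known. Named regions follow a fixed rule: the 12 widest, the 6 highest and 6 lowest scores, the outermost members of each large arm, the widest of each arm, the 3 closest pairs, the 3 most isolated, the 3 peaks on either side of the limit and the 2 windows of 500 kb with the most members. Regions outside it (the runs of 6, the window without a broad peak, the joined loci, the peaks off the arms, the high-scoring peak on chromosome 4) were chosen after their values were seen. No column held values of 1 library, so 0 were set aside. A genome or annotation of release 5 was not used here. The functions were tested on simulated peaks with known gaps. All values were computed in Python (version 3.11.15) with pandas 2.3.3 for the tables, SciPy 1.17.1 and NumPy 2.4.6 for intervals and fits, and matplotlib 3.10.9 for the plots.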

Additional observations from a re-analysis of the deposited data

How the results depend on the processing

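Of 44 alternative values, 8 stayed within the 95% interval of the value reported and 36 moved, many of them under a changed width limit, which alters the members themselves. With a limit of 4 kb, broad peaks were 18.6% of autosomal peaks, and with 7.5 kb 2.49%; after joining at 1 kb 15.7% of loci reached 5 kb, and among peaks above the list's median score the share was 16.4%. On 2L, 2R, 3L, 3R and X the shares were 17.2, 18.8, 17.7, 20.5 and 11.0% at 4 kb, 2.69, 3.22, 1.53, 2.57 and 1.3% at 7.5 kb, and 13.7, 16.6, 15.5, 16.9 and 10.6% after joining, so X was the lowest of these 5 under each of the 3, and chromosome 4 stayed at 0. The share of broad peaks above a reference score was 82.8% against the 3 to 5 kb class, 14.1% against the fitted line, and 77.7% with a limit of 7.5 kb.

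Neighbour shares depended on what counted as a neighbour. Within 1 kb the broad share was 41.8% at a limit of 4 kb, against 44.9% of narrower peaks. With higher-scoring neighbours only it was 9.6%, against 21.8%. Both turned the sign of the difference from all other autosomal peaks, a set that joins unlike widths. Within 10 kb the broad share was 54.5% with higher-scoring neighbours only, against 57.1%, and 66.4% between centres, against 69.6%, again with the sign turned. Neighbours on both sides were found for 7.12% at 4 kb, against 6.44% of narrower peaks, which lies inside the broad peaks' interval of 5.51 to 9.16%, and for 18.4% at 7.5 kb, against 6.27%. Another broad peak was present for 40.7% within 50 kb, and within 10 kb for 31.7% at a limit of 4 kb and 5.83% at 7.5 kb. Near the ends lay 1.69% with 500 kb at each end, against 1.72% of others, which turned the sign of the difference. With 2 Mb it was 15.5%, against 11.4%. Within 1 Mb the share was 4.40% at a limit of 4 kb, against 4.375% of narrower peaks, and 5.83% at 7.5 kb, against 4.34%. In the distal-most segment the share was 22.6% at 4 kb, 3.26% at 7.5 kb and 18.0% after joining, above the rest of the arms in each case; by arm it was higher in 4 of 4 at 4 kb and in 3 of 4 in the other 2, where 3L had 1.43% against 1.55% and 15.2% against 15.6%.

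The alternatives for the distal-most segment and for neighbours on both sides were added after the data were seen. No paired analysis was possible because values of single libraries are not in the list, and no fit leaves out a replicate. The planned comparison with sequence and genes was not run, as a release 5 genome was not used here. Read depth is unknown, so widths and gaps are not weighed by it.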
